A study of Mus musculus with 12 samples.

Results

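The liver-enriched transcription factors that hold hepatocytes in their differentiated state were measured in the livers of mice on chow, on a diet that induces steatohepatitis, and on the same diet with FGF21. The set was chosen by gene symbol and holds 9 of the 14822 genes in the deposited table: Hnf4a, Foxa1, Foxa2, Foxa3, Cebpa, Cebpb, Nr5a2, Onecut1 and Prox1. Polyadenylated RNA of whole liver from C57BL6/J mice was sequenced in 3 groups of 4 libraries. The first group received chow and saline vehicle and is called chow here. The second received vehicle on a diet that causes metabolic dysfunction-associated steatohepatitis (MASH), in which fatty liver is joined by inflammation and fibrosis, and is called MASH vehicle. The third received FGF21, a metabolic hormone of the fibroblast growth factor family, at 1 mg/kg/day on the same MASH diet and is called FGF21. Treatment lasted 4 weeks in all groups. The composition of the diet, its length before treatment, and the sex and age of the mice were not stated in the sources used here.

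Hepatocyte identity rests on a small network of transcription factors that bind each other's promoters as well as the promoters and enhancers of the genes for plasma proteins, bile acid enzymes and gluconeogenic enzymes. FOXA proteins open chromatin at liver enhancers, HNF4A and the C/EBP proteins keep the mature programme running, and ONECUT1, NR5A2 and PROX1 adjust parts of it. Loss of HNF4A or C/EBPα activity is known from mouse models to strip hepatocytes of metabolic functions, while C/EBPβ is known for the response to inflammation and injury.

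Expression is given as TPM, a unit in which the values of a library add up to 1000000 and a gene's length is already taken into account. Each fold change is a difference of group means on the log2(TPM + 1) scale, fitted with limma across 10988 genes. A gene is said to have risen or fallen when its Benjamini-Hochberg adjusted p-value, computed over every gene tested, was below 0.05. TPM keeps no read depth, so the number of reads behind a value is unknown. In FGF21 replicates 1 and 3 the sum was 7968 and 8206 below 1000000, against 110 to 1217 in the other 10 libraries. The pancreas gene Cela1, a digestive protease, stood at 428.5 and 578.3 TPM in those same libraries, against 28.2 to 74.6 TPM elsewhere. All 12 hepatocyte markers looked up were present, and their summed level was 83100 to 98550 TPM in chow, 82720 to 88680 TPM in MASH vehicle and 93160 to 107600 TPM in FGF21. In RNA of whole liver, fewer cells of a type and less RNA per cell cannot be told apart.

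On the MASH diet Cebpb, which encodes the C/EBP protein of the inflammatory response, rose, and no other factor passed the test. The count was thus 1 of 9 higher and 0 lower. The call of Cebpb was lost under each of the other scalings tried, as given below. Among all genes tested, 29.5% rose and 7.84% fell on the diet, so 1 of 9 higher is no more than the share seen across the transcriptome. The median log2 fold change was −0.08 over the 9 factors and 0.19 over all genes. This comparison asks what the MASH diet changes in vehicle-treated liver.

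The comparison of FGF21 with MASH vehicle asks what the hormone changes on the diet. With limma, 0 of 9 factors passed the adjusted test in either direction, where 6.02% of all genes rose and 4.28% fell. At an unadjusted p below 0.05 there were 5 factors with higher values (Hnf4a, Foxa2, Foxa3, Cebpa and Nr5a2) and 0 with lower values, while 13.8% of all genes were higher and 12.1% lower at that level. Values of 7 of the 9 factors were higher in FGF21, and the median log2 difference was 0.37 against −0.03 for all genes.

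FGF21 against chow asks how far treated livers on the diet stand from healthy livers. Hnf4a and Cebpa, the most abundant factors of the set, were higher than in chow, so that 2 of 9 rose and 0 fell. Here 37.8% of all genes rose and 14.2% fell, and the median log2 difference was 0.28 over the factors against 0.20 over all genes. The 3 comparisons share their groups pairwise, so their values are not independent of each other.

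**Figure D1:**
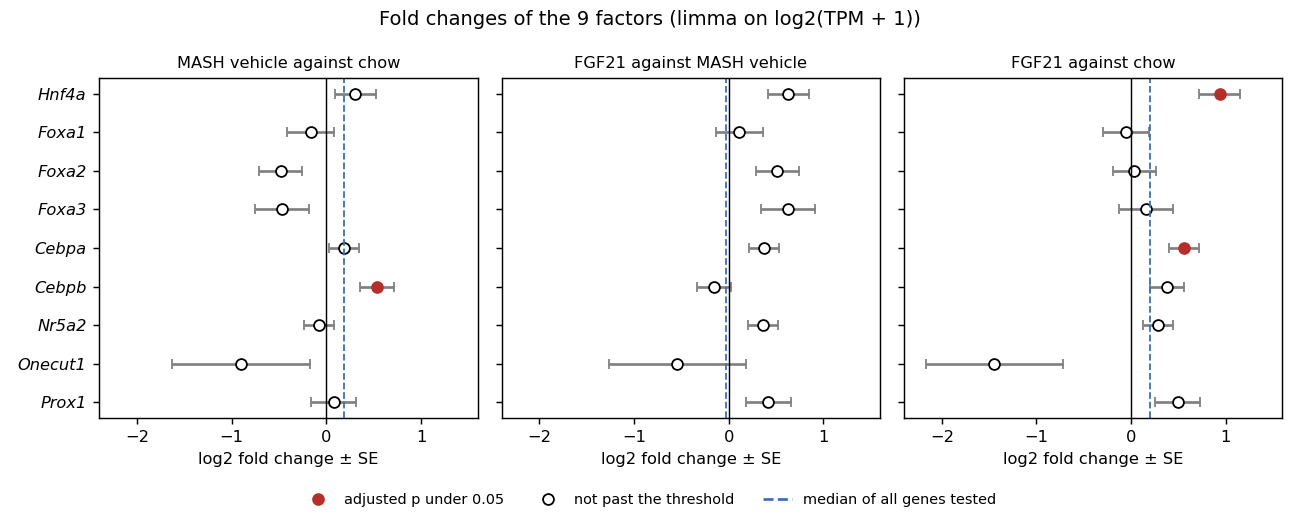
Log2 fold change ± SE of each factor in the 3 comparisons (limma, 4 libraries per group), with the median of all genes tested as a dashed line. Filled points passed the adjusted threshold of 0.05: Cebpb on the diet, and Hnf4a and Cebpa in FGF21 against chow.

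Levels of the 9 factors spanned a wide range. Averaged over the 12 libraries, Cebpa stood at 381 TPM, above 97.5% of the genes in the table, and Hnf4a at 218 TPM, above 96.1%. Cebpa ranked first and Hnf4a second among the 9 in 12 of 12 libraries. Well below them came Foxa3 (31.1 TPM), Cebpb (30.2 TPM) and Foxa2 (25.5 TPM), whose ranges over the 12 libraries overlapped. Their order changed from library to library, but in MASH vehicle Cebpb (30.1 to 43.4 TPM) lay above Foxa3 (19.7 to 27.6 TPM) throughout. Levels of different factors were not tested against each other. Prox1 (14.1 TPM), Nr5a2 (11.8 TPM), Onecut1 (8.86 TPM) and Foxa1 (7.16 TPM) formed the lower end, again with overlapping ranges. Foxa1 was the lowest of the 9 on average and still lay above 57.4% of genes.

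**Figure D2:**
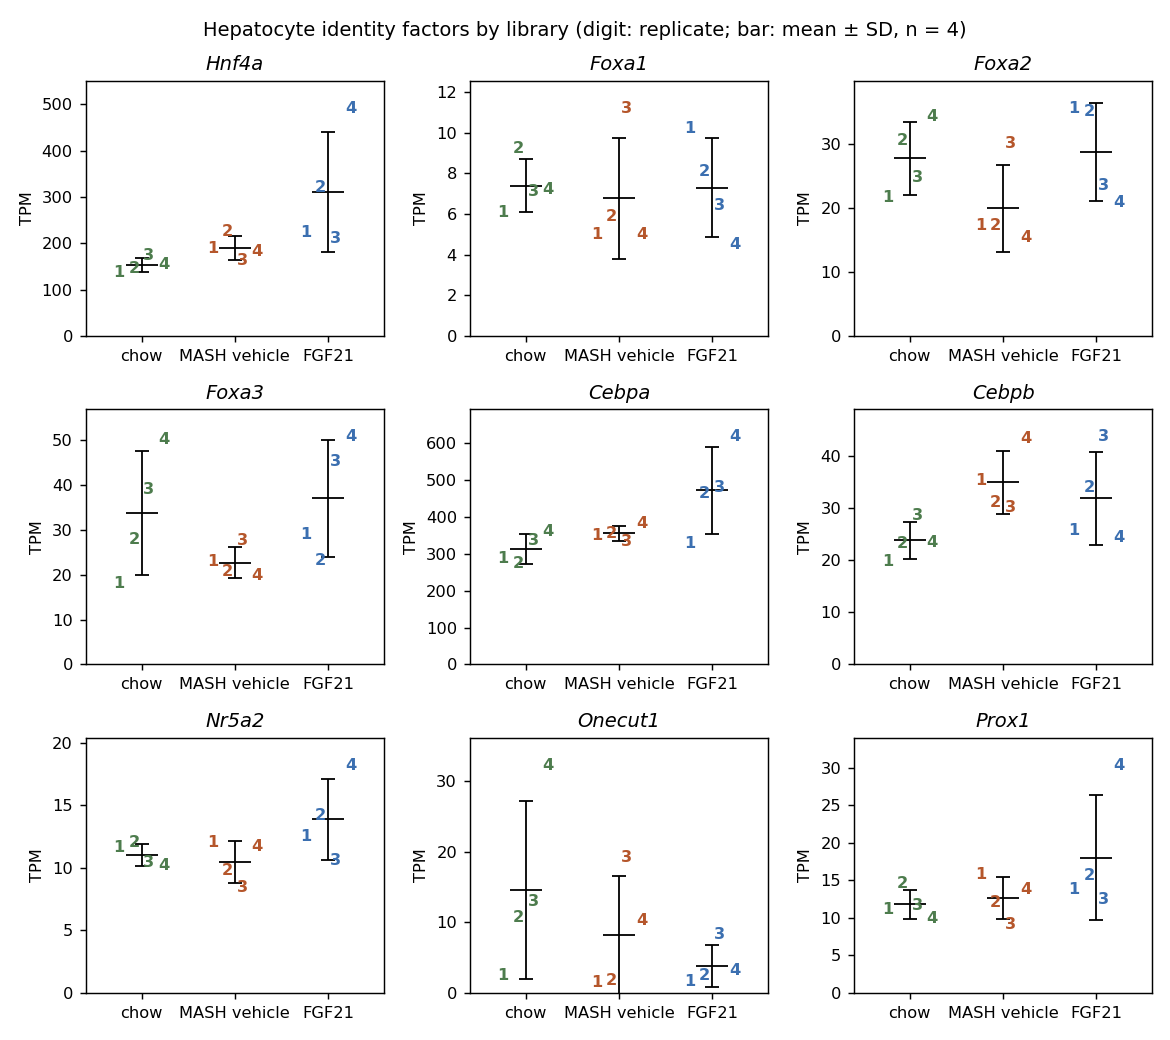
TPM of each factor in every library, with digits for the replicate and bars for the mean ± SD of 4 libraries (axes end at 0). FGF21 replicate 4 holds the highest Hnf4a (491.0 TPM), Cebpa (617.7 TPM) and Prox1 (30.3 TPM), and Onecut1 varies within every group.

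Hnf4a encodes a nuclear receptor that is a central activator of hepatocyte genes and lies on chromosome 2 (chr2:163506808-163572910, plus strand, GRCm38). In chow replicates 1 to 4 it was at 136.8, 146.3, 174.2 and 154.7 TPM. The MASH vehicle libraries held 188.8, 224.9, 163.0 and 182.3 TPM. Levels in FGF21 were 222.4, 319.5, 209.7 and 491.0 TPM. Every FGF21 library lay above every chow library, whereas MASH vehicle overlapped both of the other groups, and FGF21 replicate 4 stood far above the rest. The group means were 153.0 ± 15.9, 189.8 ± 25.9 and 310.6 ± 129.9 TPM (SD, n = 4). Relative to chow, Hnf4a was 2.03-fold higher in FGF21 by group means, a log2 change of 0.94 ± 0.22 (SE, limma adjusted p = 0.00385). The call was lost with the trend of expression with GC content removed (0.48, adjusted p = 0.0582). On the diet alone the log2 difference was 0.30 ± 0.22 (adjusted p = 0.276).

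Between FGF21 and MASH vehicle the log2 difference of Hnf4a was 0.63 ± 0.22, with an adjusted p of 0.0828. Without FGF21 replicate 1 the value was 0.76 (adjusted p = 0.0278), and without FGF21 replicate 3 it was 0.79 (adjusted p = 0.0393). These libraries held the lowest Hnf4a of the group, so leaving them out could only raise the value. With both left out it was 1.07 (adjusted p = 0.00191). Across all omissions of a single library it ran from 0.38 to 0.79, with adjusted p from 0.0278 to 0.189. The difference passed in 4 of 25 alternatives. Whether the pancreas gene in FGF21 replicates 1 and 3 bears on Hnf4a was not tested. Genes whose 12-library profile came closest to that of Hnf4a were Tmem104 and Hgs, with a mean absolute difference of 0.052 and 0.066 between their log2 values after each was set to a mean of 0. Predicted genes, with Gm and Rik symbols, were left out of this and every later search for close profiles.

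The start region of Hnf4a is shown because its known regulator Onecut1 is among the 9 factors. Mouse Hnf4a has an upstream and a downstream start, and the bases before the upstream one are given from RefSeq (GRCm38.p6, plus strand), ending where an annotated exon begins. Capitals mark the letters searched for on both strands, ATTGAT for ONECUT factors, here as the reverse complement.
Hnf4a upstream start, chr2:163506607-163506807: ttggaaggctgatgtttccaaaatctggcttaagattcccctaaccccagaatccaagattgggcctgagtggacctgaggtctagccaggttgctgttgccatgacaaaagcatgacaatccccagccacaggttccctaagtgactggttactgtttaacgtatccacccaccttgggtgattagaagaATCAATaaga
The window before the upstream start held the ONECUT letters at bases −59 to −54, counted back from the RefSeq start. The window before the downstream start held no ONECUT letters. The values are per gene, and which start was in use in these livers was not tested. The ONECUT letters were present in 6.72% of 32851 mouse promoter windows of 250 bases. A match describes the letters and does not show binding. All 9 factors matched the RefSeq promoter table. The windows of Cebpa, Cebpb, Foxa3, Onecut1 and Prox1 held neither these letters nor AAAGTCC for HNF4 (3.58% of windows), TGTTTAC for FOX (3.17%), TTGCNNAA for C/EBP (9.56%), AAGGTCA for NR5A2 (4.08%) or TTCNNNGAA for STAT5 (7.02%).

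Cebpa encodes C/EBPα, an activator of hepatocyte metabolism and a brake on proliferation, from a short gene on chromosome 7 (chr7:35119293-35121928, plus strand). Its levels were 286.3, 273.2, 336.3 and 359.7 TPM in chow. MASH vehicle gave 351.1, 356.5, 334.1 and 382.9 TPM, the tightest group of any factor, with a coefficient of variation of 5.68%. With FGF21 the values were 329.5, 462.9, 481.4 and 617.7 TPM. FGF21 replicate 1 lay within the range of the other groups and the remaining 3 lay above it, so that FGF21 overlapped chow. The means were 313.9 ± 40.9, 356.1 ± 20.2 and 472.9 ± 117.9 TPM (SD, n = 4). Cebpa rose by 0.56 ± 0.16 against chow (limma adjusted p = 0.0107), but with median-of-ratios scaling the change was 0.35 (adjusted p = 0.091) and with the GC trend removed it was 0.07 (adjusted p = 0.743). Cebpa has a GC content of 62.6%, against a median of 50.2% for the genes tested.

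Against MASH vehicle the log2 difference of Cebpa was 0.37 ± 0.16 (adjusted p = 0.153), and on the diet it was 0.19 ± 0.16 (adjusted p = 0.355). Leaving out FGF21 replicate 1, the lowest of the group, gave 0.54 (adjusted p = 0.0132) against MASH vehicle. Leaving out FGF21 replicates 1 and 3 gave 0.59 (adjusted p = 0.0119). Across all omissions of a single library the value ran from 0.23 to 0.54, with adjusted p from 0.0132 to 0.372. The difference passed in 3 of 25 alternatives. The closest profiles were those of Klhl22 and Zc3h7b, at mean absolute differences of 0.055 and 0.071.

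Cebpb encodes C/EBPβ, which is induced in liver by interleukin-6 and other cytokines and binds the same motif as C/EBPα (chr2:167688915-167690418, plus strand). Chow libraries held 19.8, 23.3, 28.6 and 23.5 TPM. MASH vehicle libraries held 35.4, 31.1, 30.1 and 43.4 TPM, each above every chow library. In FGF21 the levels were 25.7, 33.9, 43.7 and 24.3 TPM, spread over the range of both other groups. The means were 23.8 ± 3.62, 35.0 ± 6.05 and 31.9 ± 8.93 TPM (SD, n = 4). Cebpb rose 1.47-fold on the diet by group means, a log2 change of 0.53 ± 0.18 (limma adjusted p = 0.0356). With FGF21 against MASH vehicle the value was −0.15 ± 0.18 (adjusted p = 0.637), and FGF21 against chow gave 0.38 ± 0.18 (adjusted p = 0.0941).

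The rise of Cebpb was near the threshold. The adjusted p lay between 0.0508 and 0.11 without chow replicate 1, 2 or 4 or without MASH vehicle replicate 1, 2 or 4, and the change was 0.31 with median-of-ratios scaling (adjusted p = 0.195) and 0.31 with quantile normalization (adjusted p = 0.2). Cebpb is also expressed in macrophages, whose markers moved with the diet: 13 of 13 were in the table with none at 0 throughout, 10 of the 11 tested rose, and their summed level was 96.1 to 120.6 TPM in chow, 359.9 to 503.4 TPM in MASH vehicle and 293.4 to 549.9 TPM in FGF21. The part of macrophages in the Cebpb values was not tested. The ratio of Cebpa to Cebpb, given as a description, was 11.7 to 15.3 in chow and 8.82 to 11.5 in MASH vehicle, which did not overlap. In FGF21 it was 11 to 25.4, with FGF21 replicate 4 at the top. Ogg1 and Trp53i13 had the profiles closest to Cebpb, both at a mean absolute difference of 0.11.

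Foxa1, Foxa2 and Foxa3 encode the FOXA pioneer factors, which share a DNA-binding domain and can stand in for each other at many liver enhancers. Foxa2 (chr2:148042877-148046969, minus strand) was at 21.6, 30.5, 24.8 and 34.3 TPM in chow. In MASH vehicle it was at 17.3, 17.2, 30.1 and 15.4 TPM. In FGF21 it was at 35.6, 35.1, 23.5 and 20.9 TPM. Of the MASH vehicle libraries, 3 lay below every other library in the study and replicate 3 lay among the chow values. The means were 27.8 ± 5.69, 20.0 ± 6.79 and 28.8 ± 7.67 TPM (SD, n = 4). The log2 difference on the diet was −0.48 ± 0.23 (limma adjusted p = 0.105). Without MASH vehicle replicate 3, the highest of its group, it was −0.69 (adjusted p = 0.0221). Median-of-ratios scaling gave −0.71 (adjusted p = 0.031) and quantile normalization −0.70 (adjusted p = 0.0391). The difference passed in 5 of 25 alternatives, whose values ran from −0.81 to −0.38 (adjusted p from 0.0221 to 0.254). The value for FGF21 against MASH vehicle was 0.52 ± 0.23 (adjusted p = 0.168), and FGF21 against chow gave 0.03 ± 0.23 (adjusted p = 0.915).

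Foxa3, which had the highest mean level of the FOXA genes over the 12 libraries but lay below Foxa2 in 5 of them, lies on chromosome 7 (chr7:19013284-19023538, minus strand). It measured 18.1, 27.8, 38.9 and 50.0 TPM in chow. MASH vehicle libraries held 22.9, 20.6, 27.6 and 19.7 TPM, within the lower part of the chow range. FGF21 libraries held 29.0, 23.2, 45.2 and 50.7 TPM and overlapped both groups. The log2 differences were −0.47 ± 0.29 on the diet (limma adjusted p = 0.207), 0.63 ± 0.29 for FGF21 against MASH vehicle (adjusted p = 0.188) and 0.16 ± 0.29 for FGF21 against chow (adjusted p = 0.665). In chow its highest library was 2.76 times the lowest. The closest profiles were those of Nab2 and Pcsk4, at 0.15 and 0.20.

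Foxa1 (chr12:57540628-57546916, minus strand) was the least abundant FOXA gene. Its levels were 6.1, 9.2, 7.1 and 7.2 TPM in chow. They were 5.0, 5.9, 11.2 and 5.0 TPM in MASH vehicle, where replicate 3 stood apart. They were 10.2, 8.1, 6.4 and 4.5 TPM in FGF21, so that all 3 groups overlapped. No comparison came near the threshold, with log2 differences of −0.17 ± 0.25, 0.11 ± 0.25 and −0.05 ± 0.25 in the 3 comparisons (limma adjusted p = 0.608, 0.812 and 0.87). Foxa1 and Foxa2 moved alike from library to library: Foxa1 was the gene closest to Foxa2 among the genes searched, at a mean absolute difference of 0.18, while Foxa1 itself was closest to Vmo1 (0.16) and Sugct (0.17). Added together, the FOXA genes reached 45.8 to 91.5 TPM in chow, 40.1 to 68.9 TPM in MASH vehicle and 66.4 to 76.1 TPM in FGF21. Foxa1 made up 11.2% ± 2.74, 13.4% ± 2.2 and 10.1% ± 3.51 of that sum in the 3 groups (SD, n = 4), and Foxa3 between 34.9% and 66.6% of it in single libraries of the FGF21 group.

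The bases before the outermost start of Foxa2 are shown because ONECUT1 is a known activator of Foxa2, and Onecut1 varied most of the 9 factors. The stretch is from RefSeq (GRCm38.p6, minus strand), and capitals mark the ONECUT letters ATTGAT at −213 to −208.
Foxa2, chr2:148046970-148047219: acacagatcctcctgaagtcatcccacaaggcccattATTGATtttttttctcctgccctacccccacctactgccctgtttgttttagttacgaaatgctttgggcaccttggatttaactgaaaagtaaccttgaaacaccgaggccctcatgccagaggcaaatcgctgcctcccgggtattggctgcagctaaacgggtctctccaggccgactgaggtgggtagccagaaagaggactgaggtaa
The windows before the inner starts of Foxa2 held no ONECUT letters. Further matches in the set were of the FOX letters in the Foxa1 window, at −141 to −135. C/EBP letters stood before the inner start of Nr5a2. Each of these matches describes a window only.

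Onecut1 encodes a cut-homeodomain factor of hepatocytes and bile ducts, known for its place upstream of Hnf4a and Foxa2 in liver development (chr9:74861921-74891781, plus strand). In chow it was at 2.5, 10.6, 12.9 and 32.2 TPM. In MASH vehicle it was at 1.5, 1.7, 19.2 and 10.3 TPM. In FGF21 it was at 1.6, 2.4, 8.2 and 3.2 TPM. The groups overlapped, with libraries under 3 TPM in each, but every FGF21 library lay below chow replicates 2 to 4 and MASH vehicle replicates 3 and 4. The highest library was 12.9 times the lowest in chow, 12.8 times in MASH vehicle and 5.13 times in FGF21. Its coefficient of variation was 86.5%, 103% and 77.2% in the 3 groups, against medians of 14.2%, 12.4% and 20.6% for all genes tested. The log2 differences carried a large error: −0.90 ± 0.73 on the diet (limma adjusted p = 0.334), −0.54 ± 0.73 for FGF21 against MASH vehicle (adjusted p = 0.68) and −1.44 ± 0.73 for FGF21 against chow (adjusted p = 0.108). Without chow replicate 1 the last value was −2.03 (adjusted p = 0.0338). Across all omissions of a single library it ran from −2.03 to −0.94, with adjusted p from 0.0338 to 0.325.

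Values of Hnf4a and Foxa2 are set beside Onecut1 for 3 pairs of libraries, chosen after the values were seen. Between chow replicates 1 and 4, Onecut1 went from 2.5 to 32.2 TPM, Foxa2 from 21.6 to 34.3 TPM and Hnf4a from 136.8 to 154.7 TPM. Between MASH vehicle replicates 2 and 3, Onecut1 went from 1.7 to 19.2 TPM, Foxa2 from 17.2 to 30.1 TPM and Hnf4a from 224.9 to 163.0 TPM. Between FGF21 replicates 2 and 3, Onecut1 went from 2.4 to 8.2 TPM, Foxa2 from 35.1 to 23.5 TPM and Hnf4a from 319.5 to 209.7 TPM. With the higher Onecut1, Foxa2 was thus higher in the chow and MASH vehicle pairs and lower in the FGF21 pair, and Hnf4a was higher in the chow pair and lower in the other two. Even the nearest profile to Onecut1, that of the cytokine signalling inhibitor Cish, lay at a mean absolute difference of 0.56, and Arid5b followed at 0.66. Cish measured 3.9, 29.1, 30.0 and 52.3 TPM in chow, 3.5, 4.4, 40.8 and 16.2 TPM in MASH vehicle and 13.7, 30.3, 18.4 and 7.0 TPM in FGF21. Its low and high libraries were those of Onecut1 in chow and MASH vehicle, and in FGF21 the order differed.

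Foxa1, Foxa2, Onecut1 and Prox1 are also expressed in bile duct or lymphatic cells. Of 12 cholangiocyte markers in the table, Cftr was at 0 in every library, and the summed level was 41.1 to 58.1 TPM in chow, 41.8 to 90.9 TPM in MASH vehicle and 44.7 to 47.2 TPM in FGF21. None of the 8 tested changed on the diet. The part of bile duct cells in the values of these factors was not tested.

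Nr5a2 encodes LRH-1, a nuclear receptor that promotes bile acid synthesis and cholesterol uptake (chr1:136842571-136960448, minus strand). It was at 11.6, 12, 10.4 and 10.2 TPM in chow, the steadiest factor in that group with a coefficient of variation of 8.01%. It was at 12, 9.8, 8.4 and 11.7 TPM in MASH vehicle. It was at 12.5, 14.2, 10.6 and 18.2 TPM in FGF21, where replicates 1, 2 and 4 exceeded every library of the other groups and replicate 3 did not. The log2 differences were −0.08 ± 0.16 on the diet (limma adjusted p = 0.704), 0.36 ± 0.16 for FGF21 against MASH vehicle (adjusted p = 0.161) and 0.28 ± 0.16 for FGF21 against chow (adjusted p = 0.143). FGF21 replicates 1 and 3 were the lowest of the group. Leaving them out could only raise the values, which were then 0.59 against MASH vehicle (adjusted p = 0.0188) and 0.51 against chow (adjusted p = 0.0162). With single libraries left out the values were 0.23 to 0.47 against MASH vehicle and 0.15 to 0.39 against chow. None of these passed (lowest adjusted p = 0.0764 and 0.0539). Fech and N4bp2l1 had the closest profiles, at 0.086 and 0.09.

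Prox1 encodes a homeodomain protein of hepatocytes and lymphatic endothelium that is known to repress the activity of NR5A2 and HNF4A on bile acid genes (chr1:190118035-190170714, minus strand). Chow libraries held 11.1, 14.5, 11.7 and 9.9 TPM. MASH vehicle libraries held 15.7, 12, 9.1 and 13.7 TPM, and FGF21 libraries 13.7, 15.6, 12.4 and 30.3 TPM. Apart from FGF21 replicate 4, all libraries lay in the same range. The log2 differences were 0.08 ± 0.24 on the diet (limma adjusted p = 0.813), 0.42 ± 0.24 for FGF21 against MASH vehicle (adjusted p = 0.294) and 0.49 ± 0.24 for FGF21 against chow (adjusted p = 0.096). Without FGF21 replicates 1 and 3 the values against MASH vehicle and chow were 0.77 (adjusted p = 0.0412) and 0.84 (adjusted p = 0.0129). Those libraries held the lowest Prox1 of the group, so leaving them out could only raise the values. Replicates 2 and 4 then remained, at 15.6 and 30.3 TPM. Without FGF21 replicate 4 the values were 0.15 and 0.23. Endothelial markers, 11 of 11 in the table, summed to 113.5 to 130.4 TPM in chow, 164.4 to 235.0 TPM in MASH vehicle and 192.7 to 276.0 TPM in FGF21. The lymphatic marker Pdpn was at 0.0 to 0.3 TPM in all libraries and Mmrn1 at 0.0 to 0.3 TPM, and the part of endothelial cells in the Prox1 values was not tested. N4bp2l1 and Nr5a2 were nearest to Prox1, both at 0.13. The ratio of Prox1 to its partner Nr5a2 was 0.96 to 1.21 in chow, 1.08 to 1.31 in MASH vehicle and 1.1 to 1.66 in FGF21.

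In some libraries several factors stood at the extremes of their group together. In MASH vehicle replicate 3, Foxa1, Foxa2, Foxa3 and Onecut1 were at the highest level of their group, and Hnf4a, Cebpa, Cebpb, Nr5a2 and Prox1 at the lowest. In FGF21 replicate 4, Hnf4a, Cebpa, Foxa3, Nr5a2 and Prox1 were the highest of the group, and Foxa1, Foxa2 and Cebpb the lowest. In chow replicate 1, 6 of the 9 factors were at the lowest level of their group. How many of all genes tested stood at the extremes in these libraries was not counted. The pattern therefore cannot be called particular to the factors. The labels give no batch, date or collection time for the libraries.

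**Figure D3:**
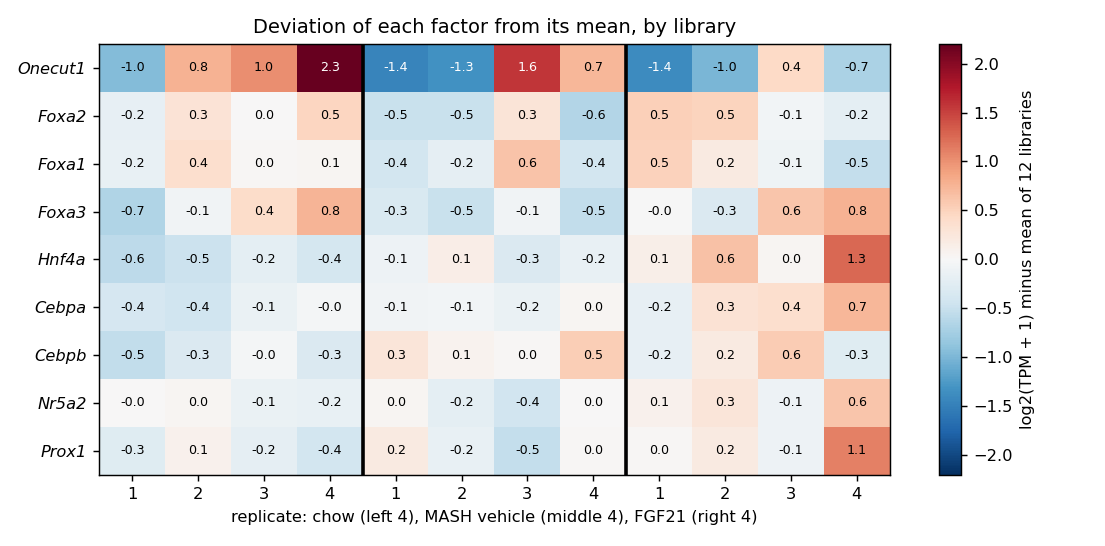
Deviation of each factor's log2(TPM + 1) from its mean over the 12 libraries, with replicates in columns and groups separated by black lines. Onecut1 has the largest deviations in both directions, and Hnf4a and Prox1 are most raised in FGF21 replicate 4.

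Scaling moved the fold changes of the factors, and removal of the GC trend moved them in different directions: on the diet Hnf4a went from 0.30 to −0.063 and Nr5a2 from −0.080 to 0.014. As deposited, the median log2 fold change over the genes tested was 0.19 on the diet and 0.20 for FGF21 against chow, and median-of-ratios scaling brought these to −0.01 and 0.02. On the diet 3242 genes rose and 861 fell as deposited, 1592 and 1980 with median-of-ratios scaling, 1683 and 1986 after quantile normalization, 1464 and 1381 after removal of the GC trend, and 2247 and 1218 when Mup and mitochondrial transcripts were left out of the total. FGF21 against chow had 4153 higher and 1560 lower calls as deposited and 2551 and 2680, 2528 and 2628, 1622 and 1726, and 3190 and 2106 under the same alternatives. For FGF21 against MASH vehicle there were 662 higher and 470 lower, and 433 and 570 with the GC trend removed. Among the factors, the diet call passed from Cebpb higher to Foxa2 lower under median-of-ratios scaling and under quantile normalization, and the diet value of Cebpa was −0.044 with median-of-ratios scaling and −0.063 with the GC trend removed. Foxa3 on the diet was called lower with the GC trend removed (−0.83, adjusted p = 0.0427) and with array weights (−0.65, adjusted p = 0.0327). The value of Hnf4a in FGF21 against chow kept its direction under every scaling tried.

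**Figure D4:**
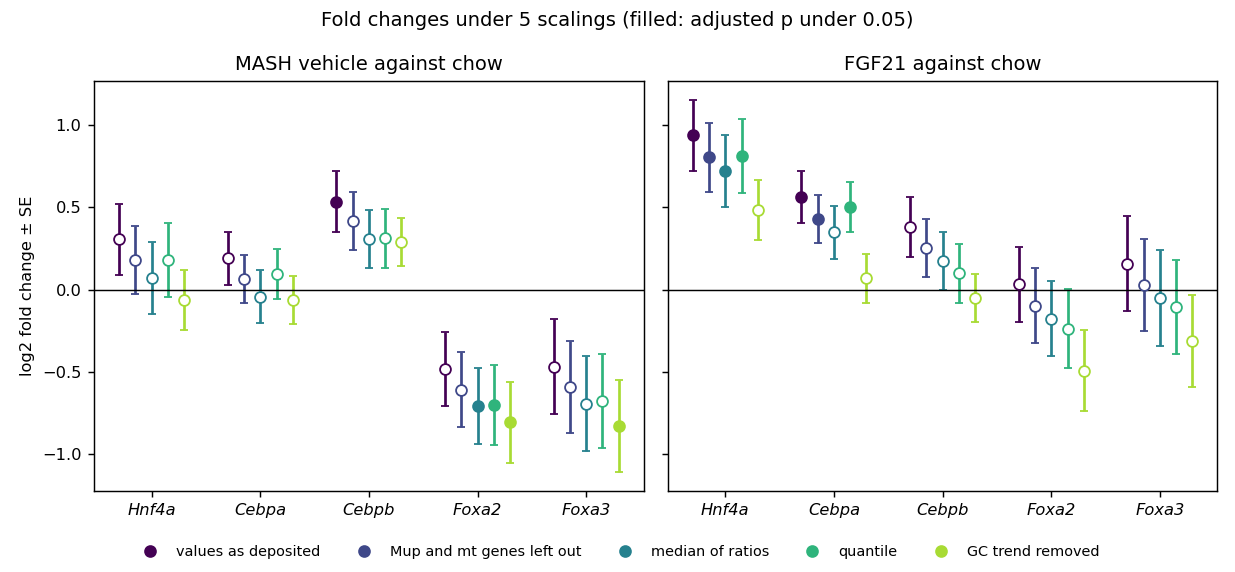
Log2 fold change ± SE of 5 factors under 5 scalings, for the diet and for FGF21 against chow. Filled points passed the adjusted threshold of 0.05: Foxa2 on the diet is filled under 3 of the 5 scalings, and Cebpb only for the values as deposited.

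Counts in the lists that follow are to be read beside the shares over all genes tested. With values as deposited, 29.5% rose and 7.84% fell on the diet. For FGF21 against MASH vehicle 6.02% rose and 4.28% fell, and for FGF21 against chow 37.8% and 14.2%. Other liver-enriched transcription factors gave the setting in which the 9 were measured. Of 31 tested on the diet, 5 rose and 3 fell, with a median log2 change of 0.17 against 0.19 for all genes. With median-of-ratios scaling 1 rose and 6 fell. The smallest p-values were those of Gata6, a GATA factor, which rose from 1.85 ± 0.1 to 3.25 ± 0.545 TPM (SD, n = 4), and of Cebpg, a C/EBP partner without its own activation domain, which rose from 12.2 ± 1.65 to 18.4 ± 2.56 TPM (limma adjusted p = 0.0038 and 0.00735). The call of Gata6 was lost with the GC trend removed and that of Cebpg with median-of-ratios scaling and quantile normalization. Onecut2, the paralogue of Onecut1, fell from 3.23 ± 0.723 to 2.03 ± 0.34 TPM (log2 change −0.47, limma adjusted p = 0.0306), a call lost without chow replicate 2 or MASH vehicle replicate 1, 2 or 4.

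With FGF21 against MASH vehicle, 3 of these 31 factors rose and 0 fell. Among them were Rxra, the common partner of nuclear receptors (0.74, adjusted p = 0.0196, lost without MASH vehicle replicate 1 or 3 or FGF21 replicate 2), and Klf15, a Krüppel-like factor of amino acid catabolism and gluconeogenesis. Klf15 stood at 227 ± 44.0 TPM in chow, 145.8 ± 23.7 TPM in MASH vehicle and 256 ± 36.7 TPM in FGF21, fell on the diet by 0.63 on the log2 scale (limma adjusted p = 0.00836) and was higher by 0.81 with FGF21 (adjusted p = 0.00845). Without FGF21 replicates 1 and 3, 11 of the 31 rose and 0 fell, with a median of 0.37 against −0.04 for all genes. That omission also raised the number of calls over all genes, given further below. Larger counts under it, here and in the lists that follow, therefore need not be particular to the lists. With all libraries kept, 15 rose and 3 fell against chow, or 7 and 5 with median-of-ratios scaling. As deposited, 37.8% of all genes rose and 14.2% fell in that comparison.

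Of 19 coregulators and partners, 2 rose and 2 fell on the diet, 0 passed for FGF21 against MASH vehicle, and 9 rose and 1 fell for FGF21 against chow. Over all genes 29.5% rose and 7.84% fell on the diet, and 37.8% rose and 14.2% fell against chow. Without FGF21 replicates 1 and 3, 5 rose against MASH vehicle. With median-of-ratios scaling 0 rose and 2 fell on the diet, and 0 rose and 3 fell against chow. Sirt1, a deacetylase, fell on the diet (−0.53, limma adjusted p = 0.0108) and the corepressor gene Ncor1 rose (0.53, adjusted p = 0.0216), the latter not with median-of-ratios scaling, after quantile normalization, with the GC trend removed, with Mup and mitochondrial transcripts left out of the total, or without chow replicate 3 or MASH vehicle replicate 2. Nr0b2, which encodes SHP, the repressor of NR5A2 and HNF4A, was at 47.9 ± 31.1, 65.5 ± 14.3 and 46.1 ± 17.3 TPM in the 3 groups (SD, n = 4) and did not pass in any comparison.

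Known targets of the factors were counted from lists that overlap, with Ttr, Tat, Pck1 and G6pc in several of them. Among 26 targets of HNF4A, 7 rose and 9 fell on the diet (median −0.28 against 0.19 for all genes), and 5 rose and 2 fell with FGF21 against MASH vehicle (median 0.19 against −0.03). The diet counts were 4 and 13 with median-of-ratios scaling, 5 and 13 with the GC trend removed and 6 and 13 when Mup and mitochondrial transcripts were left out of the total. Without FGF21 replicates 1 and 3, 10 rose and 2 fell against MASH vehicle. G6pc, the gene of glucose-6-phosphatase, fell from 153.1 ± 10.1 to 64.4 ± 10.2 TPM on the diet and stood at 143.3 ± 20.4 TPM in FGF21 (limma adjusted p = 2.13e-05 and 0.000379). Apoa4, an apolipoprotein of lipid-loaded liver, went the other way: 930.8 ± 525.9 TPM in chow, 11590 ± 1538 TPM in MASH vehicle and 4673 ± 1428 TPM in FGF21 (adjusted p = 3.06e-06 and 0.0143). F7, a clotting factor gene, fell by 0.50 on the diet and rose by 0.68 with FGF21 (adjusted p = 0.00994 and 0.00704). While these targets changed on the diet, Hnf4a itself did not pass there.

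Of 12 CEBPA targets, 10 fell and 1 rose on the diet, with a median log2 change of −0.79, while Cebpa did not pass: its value was 0.19, as was the median of all genes to 2 decimals, and was −0.044 with median-of-ratios scaling and −0.063 with the GC trend removed. The urea cycle gene Otc fell from 308.8 ± 53.9 to 149.0 ± 30.5 TPM (limma adjusted p = 0.000694). With FGF21 against MASH vehicle 1 of the 12 rose (G6pc) and 0 fell, and without FGF21 replicates 1 and 3 there were 4 and 0. Of 9 FOXA targets tested, 5 fell and 0 rose on the diet (median −0.36), and 1 rose with FGF21, or 4 without FGF21 replicates 1 and 3. Tat, tyrosine aminotransferase, fell by 1.59 on the log2 scale (adjusted p = 0.00228). Of 12 ONECUT1 targets, a list that holds Hnf4a and Foxa2, 4 fell and 0 rose on the diet and 1 rose with FGF21, again 4 without those libraries.

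Of 14 NR5A2 targets, 3 rose and 4 fell on the diet and 4 rose and 0 fell with FGF21 against MASH vehicle. Gnmt, a glycine methyltransferase, fell from 3884 ± 215.6 to 1172 ± 183.9 TPM, and the sterol exporter gene Abcg5 rose from 38.6 ± 6.18 to 91.9 ± 12.4 TPM (limma adjusted p = 3.4e-06 and 0.00015). Apom, an apolipoprotein, and Cyp8b1, the sterol hydroxylase of cholic acid synthesis, rose with FGF21 by 0.86 and 0.68 (adjusted p = 0.00238 and 0.00814). Against chow, counts in the target lists were 11 higher and 6 lower for HNF4A, 1 and 3 for FOXA, 2 and 6 for CEBPA, 6 and 4 for NR5A2, and 2 and 3 for ONECUT1. With median-of-ratios scaling the HNF4A list had 4 higher and 7 lower.

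Acute phase genes linked to C/EBPβ moved on the diet and with FGF21. Of 23, 13 rose and 5 fell on the diet (median 0.68), 1 rose and 7 fell with FGF21 against MASH vehicle (median −0.38), and 9 rose and 2 fell against chow. Against chow the counts were 6 and 5 with median-of-ratios scaling, 5 and 2 with the GC trend removed and 8 and 5 when Mup and mitochondrial transcripts were left out of the total. Saa1, serum amyloid A, was at 68.3 ± 18.1 TPM in chow, 438.4 ± 99.6 TPM in MASH vehicle and 80.3 ± 28.5 TPM in FGF21 (limma adjusted p = 9.04e-06 and 0.000168). Lcn2, an iron-scavenging lipocalin, went from 4.83 ± 1.38 to 84.2 ± 24.7 TPM and was at 13.8 ± 7.06 TPM in FGF21, and Orm2, an orosomucoid, from 12.8 ± 3.38 to 48.4 ± 14.8 and then 10.1 ± 1.49 TPM. Lcn2 and Orm2 rose on the diet and fell with FGF21 (adjusted p = 0.000495 and 0.000168 for the falls), while Cebpb did not pass with FGF21. Without FGF21 replicates 1 and 3, 6 of the 23 rose and 11 fell.

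Of 16 stress and cytokine factors that work with C/EBPβ, 11 rose and 0 fell on the diet (median 0.69), 1 rose and 4 fell with FGF21 against MASH vehicle, and 7 rose and 0 fell against chow. Atf3, a stress-induced repressor, was at 0.45 ± 0.0577, 3.68 ± 1.28 and 0.875 ± 0.171 TPM in the 3 groups (limma adjusted p = 1.61e-05 on the diet and 0.00106 with FGF21). Its means in chow and FGF21 lay below 1 TPM, so it passed the filter only with MASH vehicle libraries. Its p-values are therefore no separate support, and its values lie near the floor. Jun was at 5.23 ± 0.386, 14.3 ± 4.68 and 5.78 ± 0.66 TPM (adjusted p = 0.000243 and 0.00344), and Fosl2 rose by 0.73 on the diet (adjusted p = 0.000148). In the list of fetal, dedifferentiation and YAP genes, 14 of 18 were in the table and 8 were tested, of which 4 rose on the diet, or 2 with median-of-ratios scaling, and 2 fell with FGF21. Klf6, a Krüppel-like factor, rose by 1.28 and Sox4 by 0.54 on the diet (adjusted p = 0.000438 and 0.0111, the latter not after quantile normalization or with the GC trend removed), and Wwtr1, which encodes TAZ, fell by 0.73 with FGF21 (adjusted p = 0.011). Afp, the fetal albumin relative that dedifferentiating hepatocytes can express again, was at 0.1 to 0.5 TPM in all libraries and was not tested.

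**Figure D5:**
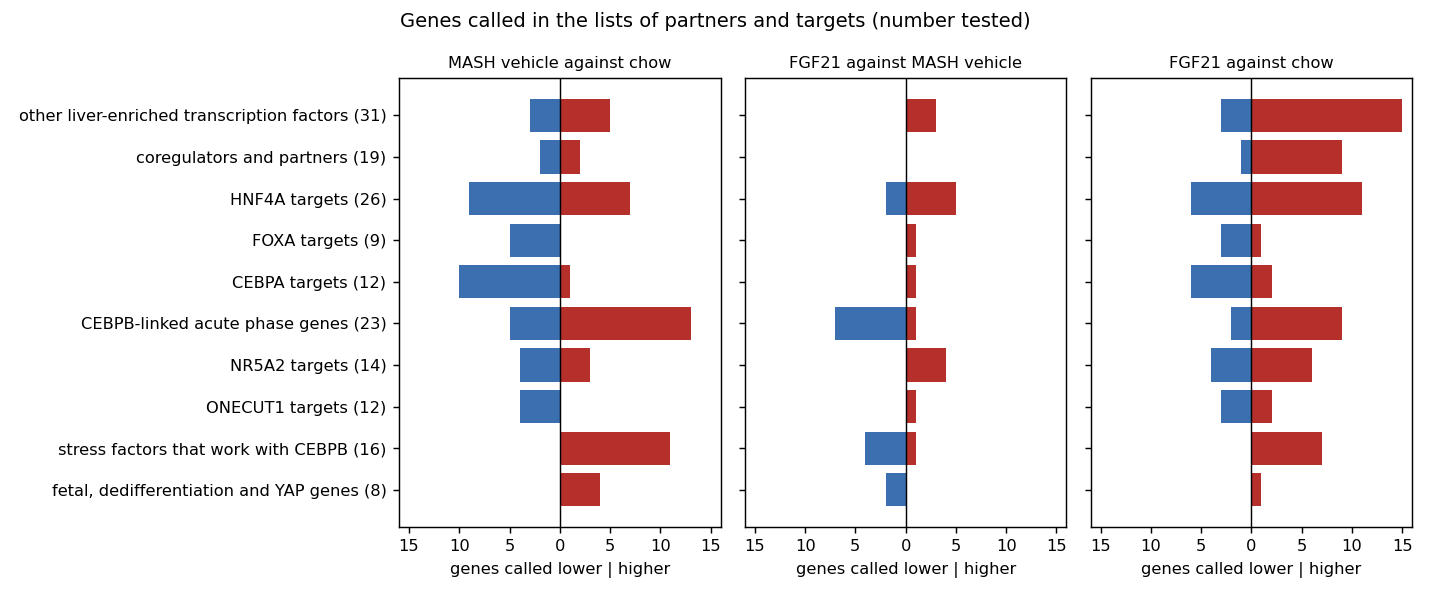
Number of genes called lower (left) and higher (right) in each list of partners and targets for the 3 comparisons, with the number tested in parentheses. On the diet 10 of 12 CEBPA targets lie to the left and 11 of 16 stress factors to the right.

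Among markers of cell types, 5 of 12 hepatocyte markers fell and 1 rose on the diet, 1 rose with FGF21 against MASH vehicle, and 3 rose and 6 fell against chow. The counts against chow were 0 and 7 with median-of-ratios scaling, 0 and 6 with the GC trend removed, and 4 and 4 after quantile normalization. Alb was at 22020 ± 3579, 24000 ± 1144 and 30590 ± 7337 TPM in the 3 groups and rose in FGF21 against chow by 0.46 (limma adjusted p = 0.0258), a call lost in 8 of 25 alternatives, among them median-of-ratios scaling, the GC trend removed, the fit to only these 2 groups, and leaving out chow replicate 1 or 2 or FGF21 replicate 2 or 4. For macrophages, 1 of 11 rose and 3 fell with FGF21 against MASH vehicle, and 9 rose against chow. Of 8 cholangiocyte markers tested, 0 passed on the diet, Spp1 alone fell with FGF21, in 16 of 25 alternatives as well, and 1 rose against chow. Endothelial markers had 5, 0 and 7 of 9 higher in the 3 comparisons and 0 lower. Stellate markers had 7 of 10 higher on the diet, or 4 with median-of-ratios scaling, 2 higher and 2 lower with FGF21, and 6 higher against chow. Both tested neutrophil markers and both tested adipocyte markers rose on the diet, and 1 of each fell with FGF21. The neutrophil markers in the table lay near the floor, with a summed level of 1.3 to 2.6 TPM in chow and 6.3 to 7.1 TPM in MASH vehicle. Of 8 pancreas and gut markers 2 were in the table, and Cela1, the 1 tested, did not pass in any comparison.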

How the data were processed

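RNA of whole mouse liver was measured in 12 libraries, 4 per group. The values deposited by the authors, for 14822 gene symbols, are called FPKM and normalized counts in their names, but each column sums to just under 1000000. They were therefore treated as deposited TPM, rounded to 1 decimal. Build mm10, Salmon 1.10.2 and Trim Galore 6.10 come from the submitters' processing notes. Annotation, transcript-to-gene step, strand setting and gene filter: not given in the sources used here. Hnf4a, Cebpa, Cebpb and Prox1 overlap genes on the opposite strand. Without strand, reads from any transcript sequence they share with those genes cannot be told apart. The overlap was looked up for whole genes and not for exons. All 12 columns matched a library name in the labels (0 unmatched), and depth is unknown. Nothing in the labels says that libraries came from separate animals, so the p-values may measure technical spread.

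The 10988 genes that reached 1 TPM in 4 or more libraries were fitted in limma 3.58.1 (R 4.3.3) on log2(TPM + 1), with 3 group means, trend and robust options, two-sided tests and Benjamini-Hochberg adjustment over all genes tested. All 9 factors passed that filter. The code was tested on simulated data. Coordinates and GC content (10810 genes, 98.4%) are from GENCODE M21 (GRCm38, also called mm10), and promoters from RefSeq (GRCm38.p6). Named outside the 9 factors were, per list, the 2 called genes of smallest p from the diet comparison and from FGF21 against MASH vehicle, or the most abundant where none was called, then Alb, Nr0b2, Afp and the 2 nearest profiles per factor, with the marker lists given mainly as counts. The factors and lists were chosen with earlier results of these data known. Onecut2, Rxra, Pdpn, Mmrn1, Flt4 and Ccl21a were named after their values were seen. Some results are not reported here because they need items withheld for evaluation.

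Alternatives were pseudocounts of 0.1 and 5, no filter, a mean TPM of at least 5, median-of-ratios scaling, quantile normalization, only the 2 groups compared, neither limma option, array weights, a replicate block and each library left out. Chosen after seeing the data were removal of the GC trend, leaving out FGF21 replicates 1 and 3, and a total without Mup and mitochondrially encoded genes.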

Additional observations from a re-analysis of the deposited data

Results flagged for a closer look

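In MASH vehicle, Foxa1 and Foxa2 each had a library far from the other 3 of the group. Foxa1 was at 11.2 TPM in replicate 3 and at 5.0 to 5.9 TPM in the others. Foxa2 was at 30.1 TPM in the same replicate and at 15.4 to 17.3 TPM in the others. Of 27 groups of 4 values looked at (9 factors in 3 groups), 2 stood out in this way, and chance marks about 1 in 20 such groups. Both values belong to the same library, in which Foxa3 and Onecut1 were also at the highest level of the group.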

How the results depend on the processing

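With values as deposited, 1, 0 and 2 factors were called on the diet, with FGF21 against MASH vehicle, and against chow. On the diet the count was 2 with only the 2 groups compared, 3 with array weights, 2 with the GC trend removed, 0 without Mup and mitochondrially encoded genes in the total, and 0 to 2 with a library left out. For FGF21 against MASH vehicle it was 3 with array weights (Hnf4a, Foxa2 and Cebpa), 4 without FGF21 replicates 1 and 3, and 0 to 2 with a library left out. For FGF21 against chow it was 1 with median-of-ratios scaling, 4 with array weights, 1 with the GC trend removed, 4 without FGF21 replicates 1 and 3, and 2 to 3 with a library left out. Calls over all genes in FGF21 against MASH vehicle (1132) numbered 631 with only the 2 groups compared, 2469 with array weights, 2989 without FGF21 replicates 1 and 3, and 569 to 2214 with a library left out (569 without MASH vehicle replicate 4 and 2214 without FGF21 replicate 1). FGF21 against chow had 5713, and 3348 with the GC trend removed. The cause was not tested.

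Signs turned for values that had not passed the test. On the diet, median-of-ratios scaling gave −0.044 for Cebpa and −0.14 for Prox1, quantile normalization −0.14 for Prox1, GC trend removal −0.063 for Hnf4a, −0.063 for Cebpa and 0.014 for Nr5a2, and Mup and mitochondrial removal −0.039 for Prox1. With a library left out, diet values spanned −0.028 to 0.21 for Prox1 and −0.14 to 0.012 for Nr5a2. FGF21 against MASH vehicle gave −0.069 for Foxa1 without FGF21 replicates 1 and 3, and −0.047 to 0.35 for Foxa1 and −0.99 to 0.020 for Onecut1 with a library left out. For FGF21 against chow, Foxa2 was at −0.18 under median-of-ratios scaling, −0.24 after quantile normalization, −0.49 with GC removal, −0.013 without FGF21 replicates 1 and 3 and −0.10 without Mup and mitochondrial genes, and Foxa3 was at −0.051, −0.11 and −0.31 under the first 3 of these and −0.26 with array weights. Foxa1 was at 0.0325 with array weights and Cebpb at −0.053 with GC removal. With a library left out, the ranges were −0.079 to 0.17 for Foxa2, −0.10 to 0.37 for Foxa3 and −0.21 to 0.13 for Foxa1.

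Same-numbered libraries correlated at −0.18 to 0.41 in their deviations from the group means, with 7 of 12 pairs over 0.1. Other pairs correlated at −0.50 to 0.43, with 9 of 36 over 0.1, a smaller share. The main fit left the replicate number out, and whether same-numbered libraries belong together was not tested. The replicate number is that of the sample titles. The library names carry other numbers for part of the libraries, so each block joins libraries whose own names differ in number. With the replicate block 1, 0 and 3 factors were called (4688, 1593 and 6111 genes over all), the added factor being Onecut1 in FGF21 against chow (−1.44, adjusted p = 0.0257). Depth is unknown and could not be weighed.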

Other observations

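Beside Onecut1, the gene of the transcriptional repressor BCL6 was looked up after values were seen. Bcl6 was at 48.2, 17.1, 7.7 and 8.9 TPM in chow replicates 1 to 4. It was at 43.3, 34.4, 8.9 and 7.8 TPM in MASH vehicle and at 36.6, 39.0, 9.9 and 45.7 TPM in FGF21. Onecut1 was below 4 TPM in chow replicate 1, MASH vehicle replicates 1 and 2 and FGF21 replicates 1, 2 and 4, and in these libraries Bcl6 was at 34.4 to 48.2 TPM. Socs2, a feedback inhibitor of growth hormone signalling, was at 3.7, 11.3, 5.2 and 12.7 TPM in chow, 6.8, 7.5, 17.3 and 8.9 TPM in MASH vehicle and 10.9, 13.5, 15.5 and 5.5 TPM in FGF21. These genes were chosen for their values, so no test was made.

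Foxa3 and the clock-controlled gene Dbp, also looked up after values were seen, had the same order of libraries in chow. Dbp was at 67.2, 112.9, 160.0 and 234.4 TPM there, at 184.9, 78.8, 117.3 and 269.4 TPM in MASH vehicle and at 57.1, 33.1, 162.5 and 139.5 TPM in FGF21. The order was not kept in MASH vehicle, and in FGF21 the 2 highest libraries changed places. The labels hold no collection times.

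Prox1 in FGF21 replicate 4 (30.3 TPM, against 12.4 to 15.6 TPM in the other FGF21 libraries) came in the library that also held the highest Flt4, a receptor of lymphatic and sinusoidal endothelium, at 29.0 TPM against 12.8 to 15 TPM. Ccl21a, a lymphatic chemokine gene, was at 0.5 TPM there and at 2.7 to 6.5 TPM in the other FGF21 libraries. Flt4 and Ccl21a belong to the list of 11 endothelial markers and were picked after values were seen. The rest of that list is not given for this library, and a link to Prox1 was not tested.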
